A study of Mus musculus with 10 samples.

Results

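The genes described here are 35 antiviral genes that type I interferon is known to induce, measured by RNA-seq in dendritic cells grown from mouse bone marrow. They were chosen by name, from the interferon-stimulated effectors and sensors with a known part in antiviral defence, and all 35 of 35 were found among the 41813 genes of the deposited tables. The choice was made with earlier results of these data known. The study held 10 samples, of which 6 were RNA-seq libraries, 3 titled activated and 3 titled non-activated. The other 4 were ATAC-seq libraries, not used here. The labels record all samples as CD11c+ MHCIIhigh dendritic cells, which are antigen-presenting cells. According to the series design, both groups received LPS, a bacterial ligand of TLR4. One was pulsed with OVA323-339, an ovalbumin peptide, the other was left without it, and both were then kept for 24 h with CD4+ OT-II T cells, which recognise that peptide on MHC class II. The sample labels instead record LPS stimulation for the activated group and none for the non-activated one. The group names are therefore used as the titles give them, and which description holds was not tested. No genotype other than OT-II for the T cells, no animal age and no step that removed the T cells before RNA isolation is given in the sources used here. The labels leave unsaid whether a replicate is its own animal or culture. The p-values therefore rest on the spread among these 6 libraries, which may be technical.

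Type I interferons signal through a receptor made of Ifnar1 and Ifnar2. The kinases Jak1 and Tyk2 then activate a complex that holds Stat2 and Irf9 and binds the interferon-stimulated response element (ISRE) in front of target genes. Interferon gamma uses another receptor and acts mainly on a different element, the gamma-activated site (GAS), and many genes respond to both interferons. In dendritic cells, LPS is known to induce interferon beta through TLR4, and the products of the target genes bind foreign RNA, block viral entry or budding, or tune the sensors that start the response.

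Promoter windows in RefSeq (GRCm38.p6, 250 bases before to 50 after the start site) were matched by symbol for 26 of the 35 genes, in 32 windows of 300 bases. An ISRE core, GAAANNGAAA on either strand with overlapping matches counted, lay in 13 of the 26 genes and in 40.6% of their windows, against 3.44% of all 32851 windows of that length. A GAS core, TTCNNNGAA, which reads the same on both strands, lay in 8 of the 26 genes and in 25.0% of their windows, against 8.3% of all windows. The 2 cores shared bases in 2 of the 32 windows. A match is a description of letters and not a site shown to be used, and no match says only that these letters are not in the window. The 200 bases before the start site are shown for 5 genes that hold the ISRE core, 3 whose RNA passed the test below (Isg15, Ifit1, Ifit3) and 2 whose RNA did not (Oas3, Bst2). Capitals mark the ISRE core, which appears as its reverse complement in Ifit1 and Ifit3. The windows are chr4:156200819-156201018 (minus strand) for Isg15, chr19:34640689-34640888 (plus) for Ifit1, chr19:34583329-34583528 (plus) for Ifit3, chr5:120777660-120777859 (minus) for Oas3 and chr8:71537473-71537672 (minus) for Bst2.
Isg15: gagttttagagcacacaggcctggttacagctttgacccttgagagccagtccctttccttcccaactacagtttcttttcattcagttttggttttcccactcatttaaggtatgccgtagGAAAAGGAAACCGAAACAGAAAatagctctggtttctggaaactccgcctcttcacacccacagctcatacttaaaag
Ifit1: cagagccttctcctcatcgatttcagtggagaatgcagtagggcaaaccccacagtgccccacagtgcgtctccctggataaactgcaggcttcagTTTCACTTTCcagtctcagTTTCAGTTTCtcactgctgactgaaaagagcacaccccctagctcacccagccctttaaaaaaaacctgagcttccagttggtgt
Ifit3: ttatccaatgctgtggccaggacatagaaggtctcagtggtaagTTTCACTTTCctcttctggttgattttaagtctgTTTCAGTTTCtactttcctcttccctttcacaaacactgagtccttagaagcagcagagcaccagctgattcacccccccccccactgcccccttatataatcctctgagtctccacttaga
Oas3: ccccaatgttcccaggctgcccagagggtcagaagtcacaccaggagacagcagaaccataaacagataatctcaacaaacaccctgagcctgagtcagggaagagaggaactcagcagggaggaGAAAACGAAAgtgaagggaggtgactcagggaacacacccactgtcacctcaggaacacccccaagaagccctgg
Bst2: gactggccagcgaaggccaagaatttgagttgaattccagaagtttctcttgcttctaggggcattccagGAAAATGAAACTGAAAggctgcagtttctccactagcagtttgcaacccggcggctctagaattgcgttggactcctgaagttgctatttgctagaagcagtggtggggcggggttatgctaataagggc

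Isg15 holds 3 overlapping cores, which begin 78, 72 and 66 bases before its start site. Ifit1 and Ifit3 hold 2 separate cores each, Bst2 holds 2 that overlap, and Oas3 holds 1. The core was thus present in genes on both sides of the test. Of the 13 matched genes with an ISRE core 9 were higher in activated cells (median log2 fold change 0.92). Of the 13 without it 8 were higher (median 0.55). Among all genes tested 15.9% were higher. Whether genes with and without the core differ was not tested. Ifit2, which had the highest fold change of all 35 genes, was among those without the core in the window.

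Summed expected counts ran from 21338012 to 27404937 per library, and the common biological coefficient of variation was 16.9%. The 8 dendritic cell markers were all measured, with a summed level of 12300 to 15940 CPM (counts scaled to library size with TMM factors) in activated and 13800 to 16290 CPM in non-activated libraries. The replicate 1 libraries of both groups stood apart in T cell receptor transcripts: Trac, the receptor's alpha constant gene, was at 7420 and 7440 CPM in activated and non-activated replicate 1, and at 2.73 to 27.8 CPM in the other 4 libraries. Trav14d-1 and Trbc2, singled out after their values were seen, followed it, with 2690 and 2730 CPM of Trav14d-1 in replicate 1 and 1.09 to 8.90 CPM elsewhere, and with 107 and 106 CPM of Trbc2 against 0.525 to 1.88 CPM. The 3 CD3 genes together reached 3.72 CPM in activated replicate 1 and 0.21 to 0.539 CPM elsewhere, and the T cell markers other than Trac summed to 34.4 to 49.1 CPM in activated and 25.2 to 51.0 CPM in non-activated libraries. Of the 7 T cell markers tested, 3 were higher in activated cells, Lck (log2 2.13), Zap70 (2.95) and Cd247 (1.19), and none was lower. The shares of all genes tested were 15.9% higher and 11.7% lower. Cd28 passed as lower with the replicate block, in a fit that called 17.2% of all genes lower. Lck did not exceed 5.17 CPM in any library. Results are given with all 6 libraries and, where they rest on it, without replicate 1 of both groups.

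Of the 35 antiviral genes, 23 were higher in activated cells, none was lower and 12 did not pass, in edgeR's quasi-likelihood test with Benjamini-Hochberg adjustment over 13946 genes and a threshold of 0.05. Of all genes tested, 15.9% were higher and 11.7% lower. Because the 35 genes were chosen with earlier results of these data known, this comparison with all genes is a description only. At an unadjusted p under 0.05, 29 of the 35 passed, 28 higher and 1 (Mx1) lower, as did 39.5% of all genes in either direction, and DESeq2 also called 0 of them lower. The median log2 fold change of the 35 was 0.79, or 1.73-fold, against 0.01 over all genes. All 35 passed the filter on low counts, with 10 to 10176 counts per gene and library. Of the 23, 13 rose at least 2-fold, as did 878 of the 2216 genes called higher among all tested. In 23 of the 35 all 3 activated libraries lay above all 3 non-activated ones, as they did in 23.9% of all genes. Those 23 are not the same set as the 23 called: Zbp1 was called although its groups overlapped, and Sp100 was not called although they did not.

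**Figure D1:**
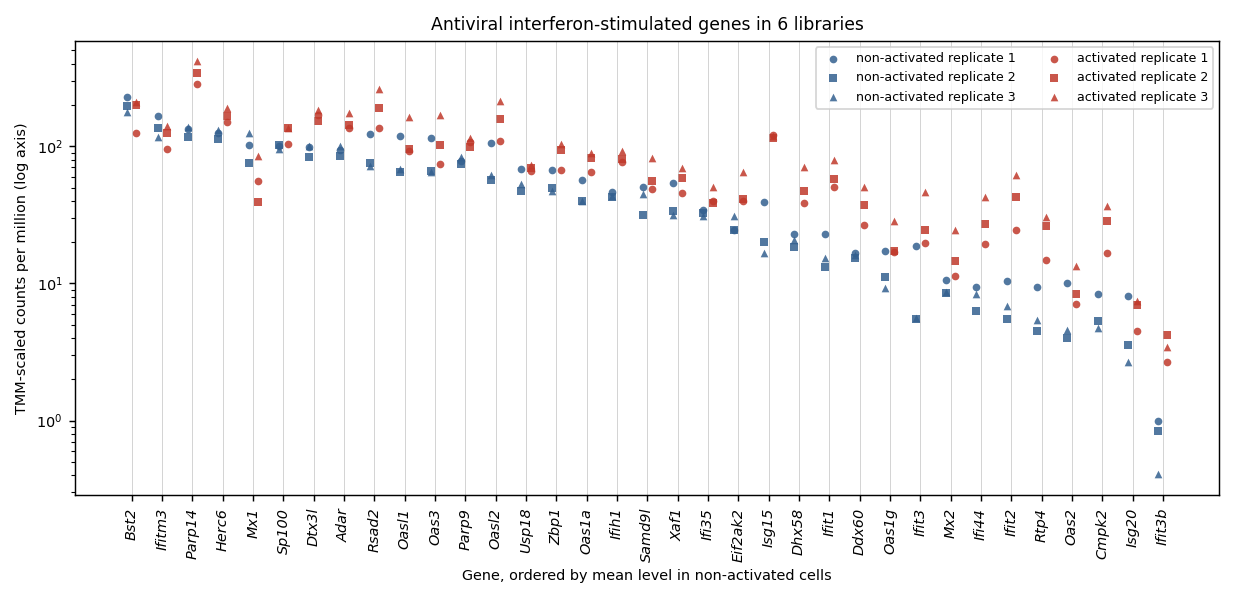
Level of each of the 35 antiviral genes in each library, as TMM-scaled CPM on a log axis, with non-activated libraries in blue, activated libraries in red and the replicate number given by the marker shape. Isg15 lies at 114 to 121 CPM in the 3 activated and 16.8 to 39.3 CPM in the 3 non-activated libraries, whereas Bst2, Ifitm3 and Mx1 overlap between groups.

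**Figure D2:**
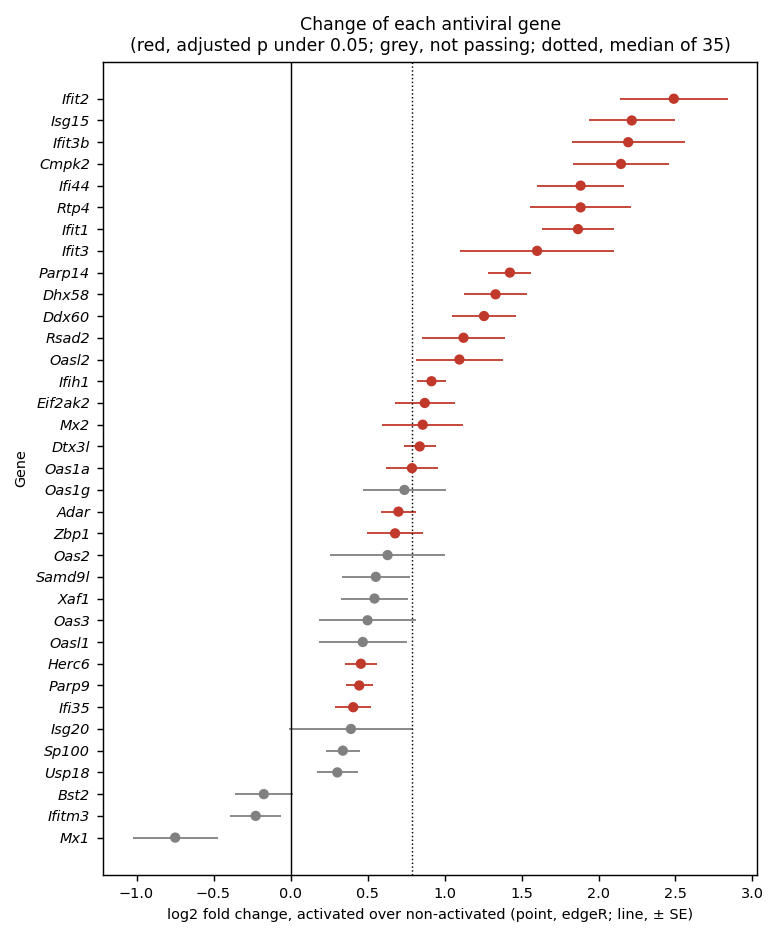
Log2 fold change of each gene (point, with a line of ± SE) from edgeR, ordered by size; red genes passed an adjusted p of 0.05, grey genes did not, and the dotted line is the median of 0.79. Ifit2 is at the top with 2.49, and Mx1 at the bottom with -0.75.

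The RNA-binding and RNA-degrading effectors form the largest class, and 8 of its 13 members were higher. The IFIT genes encode proteins that bind viral RNA lacking a host-like cap, and all 4 listed members rose. Ifit2 (ENSMUSG00000045932) stood at 24.4, 42.5 and 61.4 CPM in activated replicates 1 to 3 and at 10.3, 5.5 and 6.89 CPM in the non-activated ones. The lowest activated library was above the highest non-activated one, and the difference was 5.61-fold (log2 2.49 ± 0.35 SE, adjusted p = 0.00131, edgeR). Ifit1 (ENSMUSG00000034459) was at 50.1, 57.6 and 80.0 CPM in activated cells against 23.0, 13.2 and 15.2 CPM, or 3.65-fold higher (adjusted p = 0.000781, edgeR). Ifit3b, a near copy of Ifit3, was rare, at 2.68, 4.22 and 3.43 CPM against 0.99, 0.84 and 0.405 CPM, and was 4.57-fold higher (log2 2.19, adjusted p = 0.0031, edgeR, and 1.24 on log2 of TPM plus 1, which understates low genes). Ifit3 itself was at 19.8, 24.6 and 46.4 CPM in activated and at 18.6, 5.5 and 5.63 CPM in non-activated cells (3.03-fold, adjusted p = 0.0443, edgeR). The high non-activated value of Ifit3 was that of replicate 1, which came within 1.06-fold of activated replicate 1; without that library the log2 fold change of Ifit3 went from 1.60 to 2.44, and without replicate 3 of both groups to 0.87. The 4 genes lie within 99.5 kb of each other on chromosome 19, at chr19:34550550-34650009 (GRCm38.p6). Ifit3 and Ifit3b, near copies of each other, had fractional counts in every library, as several other genes did. Which genes shared those reads was not tested, and the separate levels of the 2 are uncertain. Ifit1 and Ifit3b also lie inside the span of Ifit1bl1 in RefSeq.

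The 2',5'-oligoadenylate synthetases sense double-stranded RNA and make short 2',5'-linked oligoadenylates, and they changed less evenly. Oas1a was at 64.5, 81.6 and 89.9 CPM in activated and 57.1, 39.8 and 39.6 CPM in non-activated libraries, without overlap (1.73-fold, adjusted p = 0.0101, edgeR). The Oas1a call was lost without replicate 2 (edgeR adjusted p = 0.0997) or replicate 3 (0.134) of both groups. Oasl2, an OAS-like protein, was at 110, 157 and 212 CPM against 106, 56.8 and 61.7 CPM, so that activated replicate 1 lay just above non-activated replicate 1 (2.14-fold, adjusted p = 0.0222, edgeR). Oas1g, Oas2, Oas3 and Oasl1 did not pass, with adjusted p-values of 0.0762, 0.25, 0.281 and 0.261 in edgeR. Each of them had log2 fold changes above 0, from 0.47 to 0.74, and overlapping groups. In Oas3, for instance, activated libraries were at 74.6, 102 and 170 CPM and non-activated ones at 114, 65.5 and 64.8 CPM. Here activated replicate 1 lay below non-activated replicate 1, while replicates 2 and 3 went the other way. The 4 OAS genes proper lie within 177 kb at chr5:120730333-120907544, and 1 of them was called. Without non-activated replicate 1, Oas1g (adjusted p = 0.0231) and Oas2 (0.0287) passed as higher in edgeR, and without replicate 1 of both groups the log2 fold change of Oas2 went from 0.63 to 1.33.

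Among the other RNA-directed effectors, Adar, the editing enzyme that turns adenosine into inosine in double-stranded RNA, was 1.62-fold higher (135, 144 and 175 CPM against 93.3, 84.6 and 101 CPM, adjusted p = 0.00292, edgeR). Eif2ak2, the kinase PKR that stops translation when it meets double-stranded RNA, was 1.83-fold higher (40.1, 41.1 and 64.8 CPM against 24.4, 24.4 and 31.0 CPM, adjusted p = 0.0115, edgeR). Both genes had non-overlapping groups. Isg20, an exonuclease, did not pass, at 4.50, 7.01 and 7.47 CPM against 8.15, 3.57 and 2.68 CPM (adjusted p = 0.512), and its highest library was non-activated replicate 1; without that library its log2 fold change went from 0.39 to 1.01 and it passed at 0.0462 in edgeR. In contrast, leaving out activated replicate 3, non-activated replicate 2 or non-activated replicate 3 took Oasl2 (edgeR adjusted p = 0.0797, 0.0790 and 0.0903) and Ifit3 (0.159, 0.130 and 0.143) past the threshold, as leaving out activated replicate 2 did for Ifit3 (0.0591). With all 6 libraries, Ifit3 also did not pass in DESeq2 (adjusted p = 0.0636) or in limma on log2 of the deposited TPM plus 1 (0.0507). Over the 16 alternatives the adjusted p ran from 0.000305 to 0.217 for Oasl2, from 0.000704 to 0.339 for Ifit3 and from 0.0115 to 0.972 for Isg20.

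The ISG15 system attaches a ubiquitin-like protein to other proteins and takes it off again. Isg15 (ENSMUSG00000035692), the modifier itself, varied little among activated libraries, at 121, 114 and 119 CPM, while non-activated libraries held 39.3, 20.0 and 16.8 CPM. The difference was 4.65-fold (log2 2.22 ± 0.28 SE, adjusted p = 0.00076, edgeR), and the spread lay in the non-activated group. Herc6, which acts as the main ISG15 ligase in mice, was 1.37-fold higher, at 150, 166 and 190 CPM against 125, 113 and 132 CPM (adjusted p = 0.0135, edgeR). Usp18, which removes ISG15 and dampens the type I interferon receptor, did not pass, at 65.9, 69.7 and 73.4 CPM against 68.7, 47.6 and 53.0 CPM (adjusted p = 0.125, edgeR). The Usp18 groups overlapped through non-activated replicate 1. Without that library Usp18 passed at 0.0158, and the Herc6 call was lost without non-activated replicate 2 (0.0605) and without activated replicate 3 (0.0505) in edgeR, with ranges of 0.00993 to 0.49 and 0.00159 to 0.148 over the 16 alternatives.

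Of the 7 genes that act on membranes, lipids or nucleotides or are antiviral GTPases, 4 were higher. Cmpk2, a mitochondrial nucleotide kinase, stood at 16.8, 28.6 and 36.6 CPM in activated and 8.41, 5.29 and 4.74 CPM in non-activated libraries (4.43-fold, adjusted p = 0.00156, edgeR). Rtp4, which restrains replication of several RNA viruses, was at 14.8, 26.3 and 30.4 CPM against 9.37, 4.50 and 5.43 CPM (log2 1.88, or 3.69-fold, adjusted p = 0.0037, edgeR, and log2 2.50 without replicate 1 of both groups). Rsad2, or viperin, which makes a chain-terminating nucleotide, was at 135, 190 and 263 CPM against 122, 76.0 and 72.0 CPM (2.18-fold, adjusted p = 0.0154, edgeR). In limma on log2 of the deposited TPM plus 0.1 or 1, Rsad2 did not pass (adjusted p = 0.0507 and 0.0520). In all 3 genes activated replicate 1 was the lowest activated and non-activated replicate 1 the highest non-activated library, and the groups did not overlap. Mx2, a dynamin-like GTPase, was 1.81-fold higher (11.4, 14.7 and 24.4 CPM against 10.7, 8.53 and 8.64 CPM, adjusted p = 0.0419, edgeR).

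Mx1, the neighbour of Mx2 and the better known influenza restriction factor, went the other way without passing. It stood at 56.0, 39.3 and 85.4 CPM in activated and 103, 75.2 and 126 CPM in non-activated libraries, a log2 fold change of -0.75 (± 0.28 SE, adjusted p = 0.0782, edgeR). The groups overlapped, although within each replicate number the activated library was the lower, with ratios of 0.544, 0.523 and 0.679. With the replicate number as a block, the adjusted p of Mx1 was 0.000269, in a fit that called 17.2% of all genes lower, and without activated replicate 3 it was 0.0195. Bst2, or tetherin, which holds budding virions on the cell, was at 124, 199 and 211 CPM against 228, 196 and 179 CPM and did not pass (adjusted p = 0.543, edgeR). Ifitm3, which blocks fusion in endosomes, was at 95.2, 125 and 140 CPM against 167, 137 and 118 CPM and did not pass (adjusted p = 0.353, edgeR). In both genes replicate 1 held the lowest activated and the highest non-activated level, and without replicate 1 of both groups their log2 fold changes turned from -0.17 to 0.11 and from -0.23 to 0.04. The call of Mx2 was lost without activated replicate 2 (edgeR adjusted p = 0.0552) or 3 (0.1), on leaving out non-activated replicate 1 (0.0612), 2 (0.125) or 3 (0.131) and on the deposited TPM (0.139), and that of Rsad2 without non-activated replicate 2 (0.0614), non-activated replicate 3 (0.0675) or activated replicate 3 (0.0526), with ranges over the 16 alternatives of 0.00644 to 0.229 and 0.0002 to 0.155, and of 0.000269 to 0.237 for Mx1.

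Of the 35 genes, 4 were grouped as sensors of foreign nucleic acid apart from the OAS family, and these 4 rose. Ifih1, or MDA5, which recognises long double-stranded RNA, was at 76.4, 80.1 and 92.5 CPM in activated and 46.4, 42.5 and 43.1 CPM in non-activated libraries (1.89-fold, log2 0.92 ± 0.09 SE, adjusted p = 0.000263, edgeR). Dhx58, or LGP2, which aids MDA5, was at 38.8, 47.3 and 70.6 CPM against 23.1, 18.4 and 20.8 CPM (2.52-fold, adjusted p = 0.00221, edgeR). Ddx60, a helicase placed in the same pathway, was at 26.7, 37.6 and 50.6 CPM against 16.6, 15.3 and 16.1 CPM (2.39-fold, adjusted p = 0.00277, edgeR). These 3 genes had separate groups with a narrow non-activated range. Zbp1, which senses Z-form nucleic acid and can start necroptosis, was at 67.1, 93.1 and 103 CPM against 67.6, 49.8 and 47.1 CPM (1.60-fold, adjusted p = 0.0265, edgeR), with activated replicate 1 just below non-activated replicate 1. The Zbp1 call was lost without activated replicate 2 (edgeR adjusted p = 0.0687) or 3 (0.0951), without non-activated replicate 2 (0.0937) or 3 (0.104), and on the deposited TPM (0.135), the range over the 16 alternatives being 0.00038 to 0.24.

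The ADP-ribosyltransferases Parp14 and Parp9 and the ubiquitin ligase Dtx3l, the partner of Parp9, were all higher, 3 of 3. Parp14 (ENSMUSG00000034422) was at 285, 340 and 415 CPM in activated and 133, 118 and 137 CPM in non-activated libraries (2.68-fold, log2 1.42 ± 0.14 SE, adjusted p = 0.000209, edgeR). Dtx3l was at 170, 152 and 183 CPM against 98.2, 83.1 and 101 CPM, and its ratios within replicate numbers, 1.73, 1.83 and 1.81, were close to each other (adjusted p = 0.000716, edgeR). Parp9 was at 106, 98.0 and 115 CPM against 77.7, 74.2 and 82.8 CPM (1.36-fold, adjusted p = 0.00642, edgeR). No group overlapped in these 3 genes, which lie within 141 kb at chr16:35831892-35972621. Parp9 and Dtx3l overlap by 558 bases there, and reads from the overlap cannot be told apart without strand.

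Of the remaining 5 effectors, 2 were higher. Ifi44, an interferon-induced protein with a GTP-binding fold, was at 19.5, 27.2 and 42.9 CPM in activated and 9.44, 6.34 and 8.43 CPM in non-activated libraries (3.69-fold, adjusted p = 0.00184, edgeR). The mean transcript length that the deposited tables give for Ifi44, weighted by isoform, was 2585 bases in activated and 1975 bases in non-activated cells, without overlap, so its ratio of mean TPM, which is scaled by length, was lower, at 2.86. On log2 of TPM plus 1 the Ifi44 difference was 1.29, against 1.88 from the counts. Ifi35, an adaptor-like protein, was 1.33-fold higher (39.7, 38.8 and 50.7 CPM against 34.1, 32.4 and 30.9 CPM, adjusted p = 0.0316, edgeR). Sp100, the nuclear body protein, was at 104, 135 and 137 CPM against 99.7, 102 and 95.9 CPM and did not pass (adjusted p = 0.0512, edgeR). Xaf1, which promotes cell death, and Samd9l, an inhibitor of translation, had log2 fold changes of 0.55 each and did not pass (adjusted p = 0.0997 and 0.0972, edgeR), with overlapping groups. With the replicate block Sp100 (adjusted p = 0.0246) and Samd9l (0.0301) passed as higher, among 20.0% of all genes, and Sp100 also passed without activated replicate 1 (0.00289) and Xaf1 without non-activated replicate 1 (0.0127), whereas the Ifi35 call was lost on leaving out any non-activated library (0.0576, 0.0924 and 0.114 for replicates 1 to 3) or activated replicate 3 (0.0823) in edgeR. Over the 16 alternatives the adjusted p ran from 0.0185 to 0.19 for Ifi35, 0.00289 to 0.32 for Sp100, 0.0290 to 0.379 for Samd9l and 0.000887 to 0.544 for Xaf1.

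On the TPM scale, which allows levels of different genes to be set side by side, Bst2 and Ifitm3 were the most abundant of the 35 in both groups although neither passed. Bst2 was at 290, 475 and 532 TPM in activated and 528, 472 and 456 TPM in non-activated libraries, and Ifitm3 at 272, 366 and 426 TPM and 474, 403 and 365 TPM. Their ranges overlapped each other in both groups. Isg15 came next in activated cells, at 299, 289 and 313 TPM, inside the range of Ifitm3, and was at 96.6, 51.2 and 45.0 TPM in non-activated cells. At the lower end, Ifit3b did not exceed 3.39 TPM in activated cells, and Oas2 lay at 2.87 to 5.82 TPM. The genes with the largest fold changes were thus not those with the highest levels, apart from Isg15.

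The size of the difference varied by replicate number in nearly all of the 35 genes. Within replicate 1 the median ratio of activated to non-activated was 1.13 and 23 of 35 genes were higher in the activated library. The median was 1.87 within replicate 2, with 33 of 35 higher, and 2.62 within replicate 3, with 34 of 35 higher. Of all genes, 49.9%, 51.1% and 52% were higher in the activated library within replicates 1 to 3. The ratio within replicate 1 was the smallest of the 3 in 33 of the 35 genes. The share of all genes with that order was not determined. Both libraries of replicate 1 contributed: activated replicate 1 was the lowest activated library in 30 of 35 genes, against 37.3% of all genes, and non-activated replicate 1 was the highest non-activated library in 27 of 35, against 32.6% of all genes. Activated replicate 3 was the highest activated library in 33 of 35, against 30.2% of all genes. Of the 12 genes that were lower in the activated library within replicate 1, 11 were among the 12 that did not pass. Relative to the TMM scaling, which centres most genes of each library, the median deviation of the 35 from the group mean ran from -0.31 to 0.38 on the log2 scale over the 6 libraries.

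**Figure D3:**
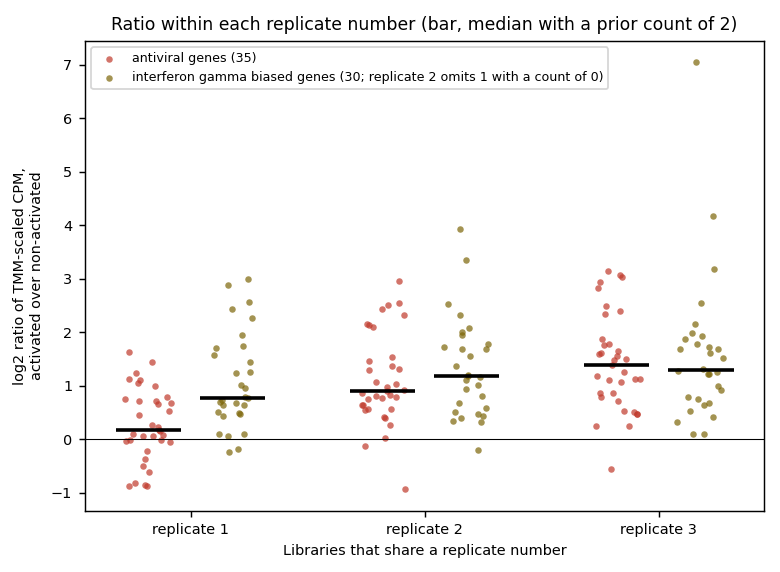
Log2 ratio of activated to non-activated level within each replicate number, for the 35 antiviral genes (red) and 30 genes biased to interferon gamma (olive), with a bar at the median. The red median moves from 0.18 in replicate 1 to 0.90 and 1.39 in replicates 2 and 3, and the olive median from 0.78 to 1.19 and 1.30.

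The replicate 1 libraries are also those with high Trac, in both groups alike. Without them, 32 of the 35 genes were higher (12.9% of all genes in that fit) and their median log2 fold change was 1.09. The 3 others, Mx1, Bst2 and Ifitm3, did not pass. This fit leaves out the replicate number with the smallest ratio in 33 of the 35 genes. Without replicate 2 of both groups 14 of the 35 were higher (1277 of 14183 genes), with a median of 0.775. Without replicate 3 of both groups 13 were higher (1185 of 14028 genes), with a median of 0.59. The part of the T cell receptor transcripts in the difference between replicates was not tested. Activated replicate 1 also held more T cell cytokine RNA than the other libraries, with Il2 at 8.62 CPM against 0 to 0.531 CPM and with 38 counts of Ifng against 0 to 7. The median biological coefficient of variation was 19.4% for the 35 genes and 13.5% for all genes. A library with fewer responding cells and one with less of this RNA per cell cannot be told apart in bulk samples.

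Nearby genes of the list were compared by their count ratios within a library, which need no scaling between libraries, in 6 pairs. Not all pairs are direct neighbours: Dtx3l lies between Parp14 and Parp9, Oas1g between Oas3 and Oas1a, and Ifit3b between Ifit3 and Ifit1. For Rsad2 over Cmpk2, which lie next to each other on chromosome 12 (chr12:26442743-26479837), the ratio was 14.5, 14.4 and 15.2 in non-activated and 8.06, 6.63 and 7.19 in activated libraries. It hardly varied among non-activated libraries although the level of each gene did. Mx1 over Mx2 was 9.65, 8.82 and 14.6 in non-activated and 4.92, 2.68 and 3.49 in activated libraries; both genes had fractional counts in every library. Parp9 over Parp14 was 0.584, 0.631 and 0.605 against 0.374, 0.288 and 0.277, and Oasl1 over Oasl2 was 1.13, 1.14 and 1.11 against 0.836, 0.604 and 0.765. In these 4 pairs the groups did not overlap, but no pair passed, with an exact two-sided permutation p of 0.1, the smallest that 3 against 3 libraries allow, and 0.15 after Benjamini-Hochberg adjustment over the 6 pairs. The other 2 pairs overlapped, with an exact p of 0.3 for Oas3 over Oas1a and 0.9 for Ifit3 over Ifit1.

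**Figure D4:**
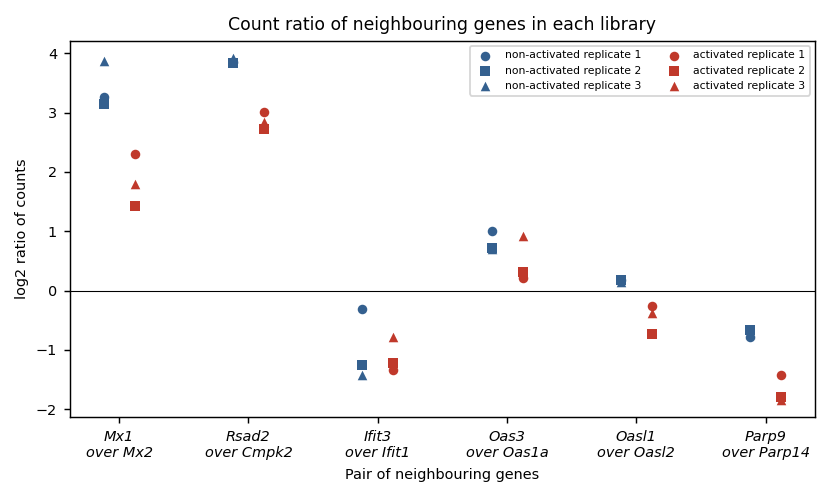
Log2 ratio of the counts of 2 nearby genes of the list in each library, with non-activated libraries in blue, activated ones in red and replicate numbers by marker shape. The Rsad2 over Cmpk2 ratios are separate between groups, and those of Ifit3 over Ifit1 overlap.

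Other genes of the interferon pathway, from a list of 47, moved in part. Of the 37 that passed the filter 14 were higher and 6 lower, against 15.9% and 11.7% of all genes. With the replicate block 15 were higher and 8 lower, against 20.0% and 17.2% of all genes. The median log2 fold change of the 37 was 0.07. Interferon RNA itself was scarce. Of the 10 ligands listed, 7 had no count in any library, and none passed the filter. Ifnb1, interferon beta, had 3, 7 and 6 counts in activated libraries and 0 in each non-activated one, where a count of 0 allows up to 0.114 to 0.126 CPM (3 counts, counting error only). Without the filter Ifnb1 passed at an adjusted p of 0.0297 and Ifng at 0.02 in edgeR, Ifng having 38 of its counts in activated replicate 1. Of the receptors, Ifnar1 and Ifnar2 did not pass, with log2 fold changes of -0.16 and -0.09 (adjusted p = 0.203 and 0.646, edgeR). Ifngr1, the ligand-binding chain for interferon gamma, was lower, at 41.1, 34.6 and 37.0 CPM against 56.0, 48.6 and 54.2 CPM (adjusted p = 0.00565, edgeR), while Ifngr2 and Il10rb did not pass, nor did Ifnlr1 (adjusted p = 0.0715, and 0.0192 as lower with the replicate block). None of the kinases Jak1, Jak2 and Tyk2 passed.

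The transcription factors split as well, with 2 of 6 higher. Irf1 was at 327, 331 and 307 CPM in activated and 84.6, 78.1 and 83.6 CPM in non-activated libraries (log2 1.97 ± 0.08 SE, adjusted p = 2.89e-06, edgeR), a narrow spread in both groups. Irf9, the DNA-binding part of the ISRE-binding complex, had a log2 fold change of 0.87 (adjusted p = 0.000338, edgeR). Stat2, Irf3 and Irf2 did not pass. Irf7, the factor that amplifies interferon production, did not pass either, at 266, 285 and 311 CPM against 457, 306 and 244 CPM, with non-activated replicate 1 again the highest library. Of the sensors and adaptors 7 of 13 were higher (8 with the replicate block, which added Tbk1), those with the smallest adjusted p being Traf3 (log2 1.10), Cgas (1.06), Ikbke (0.90) and Sting1 (0.85), and 3 were lower, Tlr9 (-1.25), Mavs (-0.32) and Ticam1 (-0.22). Of the feedback inhibitors Ptpn6 (1.06), Socs1 (0.79) and Socs3 (0.79) were higher and Ptpn2 (-0.45) lower, joined by Pias1 as lower with the replicate block. Of the 3 partner genes listed, Ube2l6, the conjugating enzyme of ISG15, was higher at 135, 149 and 163 CPM against 47.4, 39.1 and 40.1 CPM (log2 1.82, adjusted p = 1.96e-05, edgeR) and Uba7, its activating enzyme, was higher with a log2 of 0.67. Trim25, a ligase that also acts on RIG-I, was lower at 229, 251 and 284 CPM against 480, 411 and 390 CPM (log2 -0.75, adjusted p = 0.00206, edgeR).

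**Figure D5:**
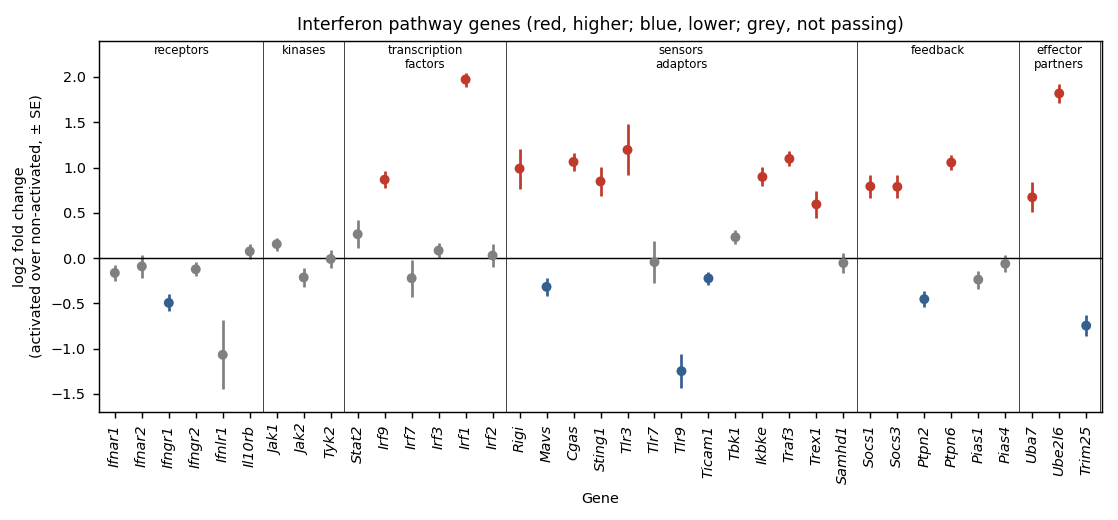
Log2 fold change (point, with a line of ± SE, from edgeR) of the 37 interferon pathway genes that passed the filter, by role; red genes were higher, blue ones lower and grey ones did not pass. Irf1 and Ube2l6 stand highest at 1.97 and 1.82, and Tlr9 lowest at -1.25.

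Genes known to respond more to interferon gamma were compared as a related set, which shares Irf1 and Socs1 with the pathway list. Of 30 such genes 25 were higher and none lower, where 15.9% of all genes were higher and 11.7% lower. With the replicate block, which added Psmb9, 26 were higher, among 20.0% of all genes. The median log2 fold change was 1.09, against 0.79 for the antiviral genes, of which 23 of 35 were higher. Whether the lists differ was not tested. Irf1, Gbp5 (log2 1.70), Tgtp2 (2.95) and Psme2 (1.09) had the smallest adjusted p in that list. The median ratio of this list within replicate numbers was 0.78, 1.19 and 1.30 on the log2 scale, and 0.18, 0.90 and 1.39 for the antiviral genes.

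Markers of other cell types were compared across the same libraries. Besides the T cell markers above, the activated helper T cell list summed to 5.10 to 18.8 CPM in activated and 11.0 to 16.2 CPM in non-activated libraries. Il2 was higher (log2 6.68, adjusted p = 0.0187, edgeR) and Icos lower (-1.33, adjusted p = 0.00354, edgeR). Activated replicate 1 held most of the Il2 RNA, as given above, and the Il2 call without that library is not given. The plasmacytoid dendritic cell list summed to 96.6 to 140 CPM in activated and 58.3 to 78.6 CPM in non-activated libraries, carried by Tcf4, which was higher (adjusted p = 0.00914, edgeR). Its other tested members, Spib and Pacsin1, were lower, and the defining genes Siglech, Ly6d and Klk1 did not exceed 0.335 CPM in any library. The B cell list summed to 1.84 to 3.14 CPM against 0.343 to 0.689 CPM, and the NK cell list to 0.245 to 0.855 CPM against 0 to 0.084 CPM, with Klrb1c and Klra8 at 0 throughout. In edgeR on group alone, 3 of the 8 dendritic cell markers were higher and none was lower. Of the 9 macrophage and monocyte markers, 1 was higher and 1 lower. The shares of all genes in that fit were 15.9% higher and 11.7% lower. With the replicate block, C1qb and C1qc of the macrophage list and H2-Aa of the dendritic cell list also passed as lower. The block fit called 17.2% of all genes lower. The neutrophil, macrophage and monocyte, and mast cell and basophil lists overlapped between groups, at no more than 0.568, 1586 and 0.966 CPM. The part of these cell types in the results was not tested.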

How the data were processed

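RNA was measured in 3 activated and 3 non-activated libraries, prepared with the NEBNext Ultra kit and read as single reads of 60 nt, per the labels' protocols; strand is not stated. The deposited tables list 1 gene per row with RSEM's columns. The authors give, per the file headers, an expected count (ambiguous reads shared in fractions), a TPM and an FPKM value, of which FPKM was not used. The file names carry a human build name, whereas the gene IDs are mouse and the submitters' processing notes name GRCm38. Which aligner made them is not given here.

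The deposited expected counts were rounded, then filtered with filterByExpr (13946 of 41813 genes kept) and fitted in edgeR 4.0.16 under R 4.3.3 with TMM, glmQLFit and glmQLFTest on group alone, and Benjamini-Hochberg adjustment over all genes tested. The SE is the log2 fold change over the root of F. CPM are TMM-scaled, and log2 CPM for deviations and median ratios within replicate numbers had a prior count of 2. Totals of 21338012 to 27404937 counts leave the spread between libraries, and not counting, as the main error of all but the low genes. All library pairs differed by more than counting noise. The test was checked on simulated data with known changes. Alternatives were DESeq2 1.42.0, no TMM factors, no filter, a stricter filter (raw CPM of at least 1 in 3 libraries), limma 3.58.1 with trend on log2 of the deposited TPM plus 0.1 or 1, the replicate block, leaving out each library and leaving out each replicate number.

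Replicate numbers come from the sample titles, which do not say what a number marks. Same-numbered libraries deviated together from their group means (correlations of 0.398, 0.313 and 0.187, against -0.315 to 0.04 for other pairs), so by these data the numbers pair the samples; blocked values stand beside a gene or list where they change a call. Symbols and promoters were matched to RefSeq and gene ID tables. The antiviral genes, the lists and the pairs of nearby genes were chosen with earlier results of these data known. All 35 genes are named, and from each other list at most the 4 with the smallest adjusted p in each direction, plus pathway ligands, receptors and transcription factors; kinases, feedback genes, partners and cell markers beyond these were named after their values were seen. Of the genes first listed, 3 are not reported here and were left out of the list counts and sums.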

Additional observations from a re-analysis of the deposited data

How the results depend on the processing

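The median log2 fold change of the 35 genes stayed above 0 in all 16 alternatives, from 0.57 without activated replicate 3 to 1.09 without replicate 1 of both groups. In every alternative 12 genes passed as higher: Cmpk2, Isg15, Dtx3l, Parp14, Adar, Ifit1, Ifit3b, Ifit2, Ifi44, Ifih1, Ddx60 and Dhx58. The share of all genes that passed as higher in every alternative was not determined. Leaving out 1 library gave 16 to 26 antiviral genes higher, 0 to 1 lower and 2679 to 3629 of all genes passing, against 23, 0 and 3848. Of all genes, 1586 to 1956 were higher in these fits, against 2216. Without replicate 2 of both groups 14 antiviral genes were higher and 2052 genes passed, 1277 of them higher. Without replicate 3 of both groups 13 antiviral genes were higher and 1785 genes passed, 1185 of them higher. These 2 fits hold 2 libraries per group. The lower count rose to 1, which was Mx1, without the filter on low counts and with the replicate block. The block gave 25 antiviral genes higher, 1 lower and 5184 genes passing, of which 2787 were higher and 2397 lower. It changed no call of the 35 other than those of Mx1, Sp100 and Samd9l. Direction turned for 4 genes that had not passed: Isg20 and Oas3 (log2 fold changes of -0.0345 and -0.0298 without replicate 3 of both groups), Bst2 (-0.33 to 0.0123 on leaving out 1 library, the highest without activated replicate 1, and 0.11 without replicate 1 of both groups) and Ifitm3 (0.0424 without replicate 1 of both groups). The cause was not tested. On the deposited TPM 18 (pseudocount 0.1) or 17 (pseudocount 1) antiviral genes were higher, among 1543 and 1550 of 13946 genes. With library size alone 1792 genes were higher and 2274 lower, against 2216 and 1632, and 21 antiviral genes were higher. Depth limits Ifit3b and the interferon ligands, with few counts per library.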

Other observations

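Other interferon-stimulated genes outside the 35 were described from a list of 50. Of the 46 tested, 24 were higher in activated cells and 4 lower in edgeR's quasi-likelihood test, against 15.9% and 11.7% of all genes. With the replicate block 25 were higher and 4 lower, against 20.0% and 17.2% of all genes. The median log2 fold change was 0.49, and 0.79 for the 35 antiviral genes. Whether the 2 lists differ was not tested. The 4 with the smallest adjusted p among the higher ones were Slfn5 (202, 220 and 261 CPM against 65.1, 66.8 and 67.8 CPM), Tdrd7 (log2 1.10), Znfx1 (1.20) and Trim30a (1.33). Slfn5 belongs to the Schlafen family of growth and antiviral regulators, and its non-activated level varied little between libraries.

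The lower ones included relatives of the fusion inhibitor Ifitm3. Ifitm1 was at 70.5, 76.2 and 76.3 CPM in activated and 196, 218 and 193 CPM in non-activated libraries (log2 -1.45, adjusted p = 1.61e-05, edgeR), and Ifitm2 at 54.2, 66.8 and 69.2 CPM against 88.3, 94.2 and 84.3 CPM (log2 -0.49, adjusted p = 0.00984, edgeR). Both had separate groups, unlike Ifitm3. Sp140 (-0.43) and Ifi27l2a (-0.50) were lower as well.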
